A study of Homo sapiens with 15 samples.

Results

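The genes of cholesterol synthesis and the targets of sterol regulatory element-binding proteins (SREBPs) were followed in HEK-293T, a line of human embryonic kidney cells, in which THAP1 had been disrupted. The 33 genes were chosen by name for their place in the pathway, with earlier results of these data known. Counts of them against all genes are therefore not an independent test. All 33 had a row among the 35805 genes of the table and passed the filter on low values, as did 16787 genes in all. They fall into 7 genes of the early sterol pathway from acetyl-CoA to farnesyl diphosphate, 11 of the late pathway from squalene to cholesterol, 5 that encode the SREBP factors and their control, 3 of sterol transport and 7 of fatty acid synthesis and desaturation.

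RNA-seq was performed on 5 groups of 3 libraries. These were untransduced cells, cells transduced with Cas9 and 1 of the control guides sg1-Control and sg2-Control, and cells transduced with Cas9 and 1 of the guides sg1-THAP1 and sg2-THAP1. The libraries of both control guides (sgControl, 6) and of both THAP1 guides (sgTHAP1, 6) were pooled for the main comparisons. By the study's methods, the experiment used a knock-in line that carries GFP under the PSMB5 promoter and overexpresses exogenous PSMB5 and the THAP1 knockout cells were a population sorted for dim GFP rather than a clone. The control guides cut within introns. The untransduced cells therefore differ from sgControl cells in transduction, Cas9, a guide and its cut all at once, and these cannot be told apart.

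Cells make cholesterol from acetyl-CoA through mevalonate, farnesyl diphosphate, squalene and lanosterol. The SREBP proteins are made as precursors in the membrane of the endoplasmic reticulum. When sterols are low, SCAP escorts them to the Golgi, where proteases release the part that enters the nucleus and activates sterol and lipid genes. When sterols are high, the INSIG proteins hold SCAP and its cargo back. SREBF2 mainly serves sterol synthesis and uptake and SREBF1 mainly fatty acid synthesis, and both genes are themselves targets of the pathway, as is INSIG1.

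Library depth ran from 30400149 to 56638461 reads (median 35196087), and 90.8% to 94.5% of them lay in listed genes. Each member had 317 to 44592 reads per library, apart from NPC1L1, the sterol uptake protein of the gut, which had 2 to 26. The 7 markers of the HEK-293T background were detected in every group, at a summed 2710 to 2780 RPM (reads scaled to a fixed library total) without transduction, 2530 to 2690 with the control guides and 2450 to 2900 with the THAP1 guides. The 16 markers of the other lines used in the study summed to 0.461 to 0.821, 0.938 to 4.33 and 0.778 to 4.13 RPM in the same order. Of the HEK-293T markers, LHX1 and CKB were lower and NEFM and VIM higher in sgTHAP1 than in sgControl, and their part in the results was not tested. Among the 16 markers of other lines, CD3D was at 0 reads in all 15 libraries, whereas CD14 had 4 to 44 reads and KRT81 0 to 76. CD14 was higher in sgControl than in untransduced cells (limma, 1.87 ± 0.32, adjusted p = 3.3e-05). KRT17 was higher in sgTHAP1 than in untransduced cells (2.37 ± 0.72, adjusted p = 0.00598). Of the 4 such markers tested, none passed in sgTHAP1 against sgControl. The 5 liver, gut and steroid markers summed to 0.0845 to 0.492 RPM over the 15 libraries. The log2 RPM of the THAP1 transcript was 3.36 to 3.46 without transduction, 3.25 to 3.57 with the control guides and 5.48 to 6.18 with the THAP1 guides, and since a cut need not lower a transcript, this level does not check the labels. In bulk RNA, fewer cells with a transcript and less transcript per cell cannot be told apart.

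Scaled per kilobase of merged exon in GENCODE 44, the members spanned more than 3 orders of magnitude in untransduced cells. The highest was SCD, the desaturase that makes monounsaturated fatty acids, at 130 ± 1.1 RPKM (RPM per kilobase, SD, n = 3). ACLY, which makes cytosolic acetyl-CoA from citrate, followed at 104 ± 2.2 RPKM. FDPS (41.5 ± 1.4 RPKM), FASN (40.9 ± 1.5) and INSIG1 (39.1 ± 0.91) came next, and their order is not settled, since the 3 libraries of FDPS and FASN, and those of FASN and INSIG1, overlapped. At the lower end were HSD17B7 at 3.06 ± 0.17 RPKM, the mevalonate kinase gene MVK at 1.83 ± 0.21 RPKM and NPC1L1 at 0.071 ± 0.041 RPKM. Of the 32 pairs of neighbours in this order, 14 had overlapping libraries and 18 did not. The merged length counts exons of all annotated transcripts, so these levels understate a gene that uses a short one.

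The stretches before the start sites of 7 members are shown here, because they carry the largest changes described later: STARD4, INSIG1 and IDI1 fell most with the THAP1 guides, HMGCS1 rose most with the control guides, SREBF1 and SREBF2 encode the factors, and MVD went the other way. Capitals mark CCAAT and the sterol regulatory element core CACNCCAC, either of them also as its reverse complement where it lies on the opposite strand. Sequences are from RefSeq on GRCh38.p14, 5′ to 3′ on the strand of the gene, from position -250 and ending before both the RefSeq start and the 5′ end of the gene in the deposited table.
STARD4 (chr5:111512591-111512785, minus strand): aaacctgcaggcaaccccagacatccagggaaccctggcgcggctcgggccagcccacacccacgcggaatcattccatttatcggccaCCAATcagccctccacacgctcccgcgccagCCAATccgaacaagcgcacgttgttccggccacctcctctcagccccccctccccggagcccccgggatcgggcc
INSIG1 (chr7:155297628-155297775, plus strand): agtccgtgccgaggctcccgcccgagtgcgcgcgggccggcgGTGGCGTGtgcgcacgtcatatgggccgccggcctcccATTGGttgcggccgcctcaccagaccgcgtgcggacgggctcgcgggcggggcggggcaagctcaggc
IDI1 (chr10:1049171-1049369, minus strand): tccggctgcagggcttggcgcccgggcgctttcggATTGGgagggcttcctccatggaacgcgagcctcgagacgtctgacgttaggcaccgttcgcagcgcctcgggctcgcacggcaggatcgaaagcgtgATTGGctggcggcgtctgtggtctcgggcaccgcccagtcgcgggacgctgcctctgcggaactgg
HMGCS1 (chr5:43313513-43313662, minus strand): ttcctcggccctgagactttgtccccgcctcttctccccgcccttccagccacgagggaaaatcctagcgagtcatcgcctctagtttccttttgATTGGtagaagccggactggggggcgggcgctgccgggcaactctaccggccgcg
SREBF1 (chr17:17837003-17837236, minus strand): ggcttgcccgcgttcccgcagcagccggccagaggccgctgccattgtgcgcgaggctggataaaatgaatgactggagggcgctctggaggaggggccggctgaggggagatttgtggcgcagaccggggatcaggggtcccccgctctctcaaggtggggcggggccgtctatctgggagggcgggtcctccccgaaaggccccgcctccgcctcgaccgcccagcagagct
SREBF2 (chr22:41832855-41833078, plus strand): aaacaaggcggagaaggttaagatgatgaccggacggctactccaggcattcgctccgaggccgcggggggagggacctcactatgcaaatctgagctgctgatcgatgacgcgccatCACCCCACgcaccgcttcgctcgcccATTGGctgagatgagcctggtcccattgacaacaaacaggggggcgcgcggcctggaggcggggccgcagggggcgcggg
MVD (chr16:88663162-88663341, minus strand): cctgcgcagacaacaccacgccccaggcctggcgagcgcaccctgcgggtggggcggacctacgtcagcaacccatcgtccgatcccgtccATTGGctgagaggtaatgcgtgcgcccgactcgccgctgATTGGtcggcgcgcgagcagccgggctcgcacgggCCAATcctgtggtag

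RefSeq promoters from 250 bases before to 50 after the start were at hand for 29 of the 33 genes, and not for ACAT2, FDFT1, SQLE or FASN. Letters were matched on both strands, with 1 promoter per gene. CCAAT was present in 18 of 29 members (62.1%), compared with 34.6% of all 35116 promoters. CACNCCAC was present in 4 of 29 (13.8%, SC5D, INSIG1, SREBF2 and SCD) compared with 5.87% of all. Its longer form TCACNCCAC, which contains it, was in SREBF2 alone among the members, against 1.13% of all promoters. The E-box CACGTG was in 4 members (LSS, SC5D, INSIG1 and SCAP, 13.8%) and in 7.26% of all promoters. The GC box GGGCGG was in 25 members (86.2%) and in 45% of all. TNNNGGCA, the motif bound by the THAP domain, was in 15 members (51.7%) and in 41.7% of all. The shares over all promoters are not limited to 1 per gene, nor to genes that passed the filter on low values, as the members did. Shares over expressed genes alone were not counted. Over all 39 promoters of the members, the share was 64.1% for CCAAT, 17.9% for CACNCCAC and 2.56% for TCACNCCAC. It was 12.8% for the E-box, 87.2% for the GC box and 46.2% for TNNNGGCA. In the stretches shown, STARD4 had CCAAT at -161 and -130, IDI1 at -215 and -117 and MVD at -159, -120 and -85, whereas the SREBF1 stretch had none. SREBF2 had the sterol element at -132 and CCAAT at -106, and INSIG1 had CACNCCAC at -208 and CCAAT at -170. MVD, whose transcript was higher with the THAP1 guides, and STARD4, whose transcript was lower, thus both had CCAAT. Positions are those of the base of the match nearest to the 5′ end. A match says only that the letters are there.

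The comparison of sgTHAP1 with sgControl asks what differs in cells in which THAP1 was disrupted. The study describes the sort for dim GFP for the THAP1 knockout cells, so the guide and the sort cannot be told apart here. Most of these genes were lower in the THAP1 cells. At an adjusted p under 0.05 (limma, Benjamini-Hochberg over the 16787 genes), 24 of the 33 fell and 4 rose. Over all genes, 32.6% fell and 20.2% rose by the same rule. The median member was at -0.50 on the log2 scale against -0.06 for all genes, a difference of -0.44. By the stricter rule of adjusted p under 0.001 and over 2-fold, STARD4 was the 1 member to fall, where 1.83% of all genes fell. All 6 sgTHAP1 libraries lay below all 6 sgControl libraries for 20 members and above them for PMVK and MVD, whereas 19.9% of all tested genes had the THAP1 libraries wholly below and 11.0% wholly above. In an exact permutation test of each gene (two-sided, 6 libraries a side), these same 22 members had the smallest p the design allows, 0.00216. Libraries that separate fully give that p by construction, so the test restates this count and adds no support to it. That test, like the pooled fit, counts libraries of the same guide as independent. Scaling each library to its median gene moved the median of all genes by 0.11, after which 20 members were lower and 5 higher. The calls over all genes turned from 32.6% lower and 20.2% higher to 22.3% lower and 31.9% higher. This scaling shifts every gene of a comparison alike. The difference of the medians therefore stayed at -0.44 by construction, which adds no support. Quantile normalization gave 21 lower and 4 higher.

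**Figure D1:**
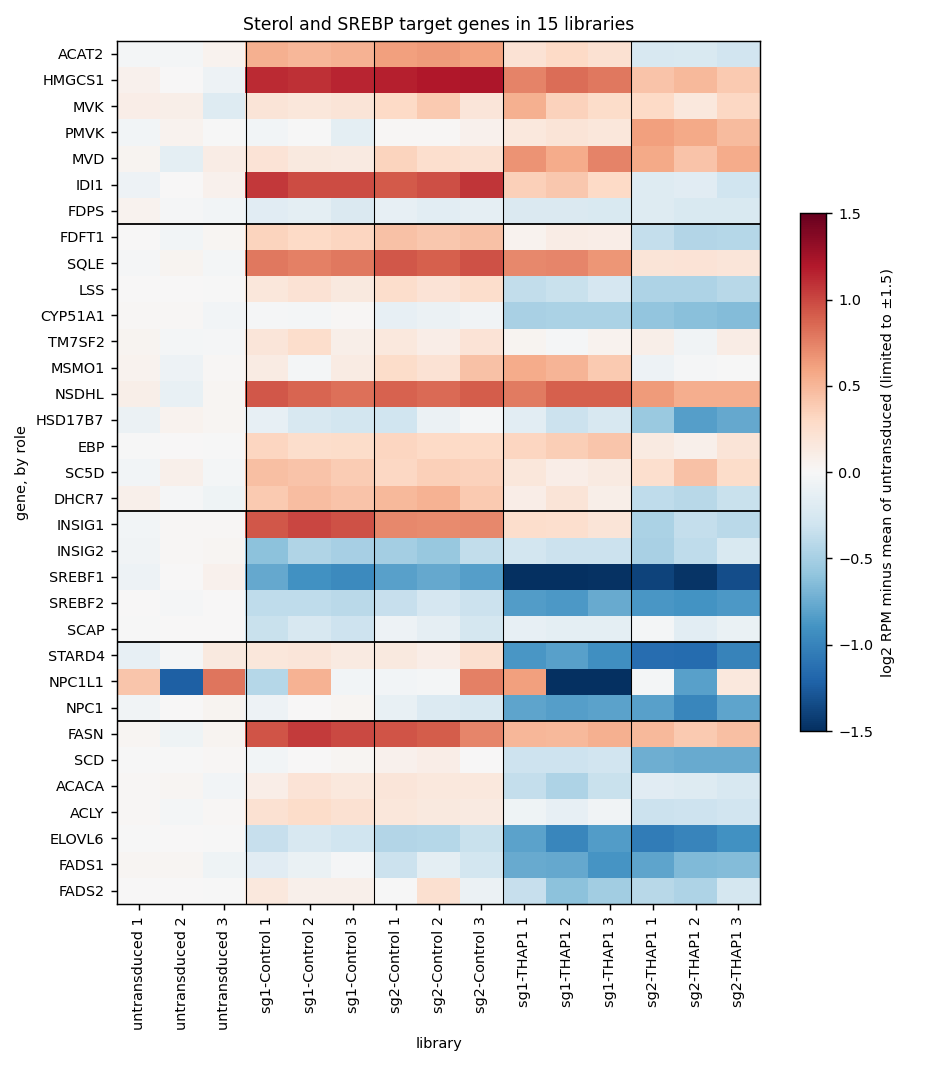
Log2 RPM of each of the 33 genes (rows, by role, separated by lines) in each of the 15 libraries (columns), minus the gene's mean in the 3 untransduced libraries. Red is above and blue below that mean, and differences are limited to ±1.5. Many sterol genes are red with the control guides and paler or blue with the THAP1 guides, STARD4, NPC1, CYP51A1, ELOVL6, FADS1, SREBF1 and SREBF2 are blue with the THAP1 guides, and NPC1L1 varies between replicates.

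In the early pathway, 3 of 7 genes were lower and 2 higher in sgTHAP1 than in sgControl, with a median of -0.06. IDI1, which interconverts the isoprenoid building units, stood at 7.48, 7.41 and 7.40 log2 RPM with sg1-Control and 7.34, 7.39 and 7.49 with sg2-Control. The sg1-THAP1 libraries had 6.78, 6.83 and 6.72 and the sg2-THAP1 libraries 6.23, 6.25 and 6.12. The THAP1 libraries were all below the control libraries, and the 2 guides were apart from each other, with a log2 fold change of -0.93 ± 0.10 (SE, adjusted p = 1.0e-07). HMGCS1, the synthase that makes hydroxymethylglutaryl-CoA, had 6.73, 6.72 and 6.76 log2 RPM with sg1-Control and 6.78, 6.82 and 6.83 with sg2-Control, against 6.36, 6.45 and 6.40 with sg1-THAP1 and 6.04, 6.11 and 6.01 with sg2-THAP1. It fell by 0.55 ± 0.06 (adjusted p = 5.7e-07). ACAT2, the thiolase of the first step, fell by 0.57 ± 0.08 (adjusted p = 1.1e-05), from means of 6.55 to 5.99 log2 RPM. FDPS, which makes farnesyl diphosphate, had -0.06 ± 0.03 (adjusted p = 0.0585), and it passed with a stricter filter on low values (adjusted p = 0.0492), with 1 coefficient per guide (0.0134), with sg1-THAP1 alone (0.038), with sg2-Control alone (0.00794) and without sg1-Control replicate 3 (-0.07, adjusted p = 0.0352).

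The kinase and decarboxylase steps between these enzymes did not share the direction of their neighbours. PMVK, phosphomevalonate kinase, stood at 5.01, 5.05 and 4.91 log2 RPM with sg1-Control and 5.06, 5.07 and 5.11 with sg2-Control, and at 5.21, 5.24 and 5.23 with sg1-THAP1 and 5.67, 5.61 and 5.52 with sg2-THAP1. MVD, the decarboxylase that follows it, stood at 5.39, 5.33 and 5.32 with sg1-Control and 5.52, 5.43 and 5.41 with sg2-Control, and at 5.85, 5.74 and 5.93 with sg1-THAP1 and 5.75, 5.60 and 5.74 with sg2-THAP1. Both genes were above every one of the 9 other libraries in all 6 sgTHAP1 libraries. PMVK rose by 0.38 ± 0.07 (adjusted p = 1.6e-04) and MVD by 0.37 ± 0.05 (adjusted p = 8.4e-06). MVK, the kinase before them, had 0.08 ± 0.07 (adjusted p = 0.314), with an adjusted p of 0.027 after median centring. MVK overlaps MMAB on the opposite strand, and since the strand setting of the counting is not given in the sources used here, reads of both cannot be separated with certainty.

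In the late pathway, 9 of 11 genes fell and none rose, with a median of -0.30. LSS, lanosterol synthase, had sgControl libraries at 6.58, 6.64 and 6.57 (sg1-Control) and 6.68, 6.62 and 6.68 (sg2-Control) log2 RPM, and sgTHAP1 libraries at 6.05, 6.09 and 6.16 (sg1-THAP1) and 5.96, 5.95 and 6.0 (sg2-THAP1). It fell by 0.59 ± 0.04 (adjusted p = 8.6e-11), with no overlap and little difference between guides. DHCR7, the reductase of the last step, fell by 0.57 ± 0.09 (adjusted p = 1.2e-05) and FDFT1, squalene synthase, by 0.53 ± 0.09 (adjusted p = 2.7e-05). CYP51A1, the lanosterol demethylase, fell by 0.50 ± 0.04 (adjusted p = 5.1e-10), and its THAP1 libraries were below the untransduced ones as well. It overlaps LRRD1 on the same strand (median 4125 reads for LRRD1 and 4432 for CYP51A1), where the strand alone cannot separate reads. SQLE, the squalene epoxidase that limits the rate of the late pathway, fell by 0.40 ± 0.09 (adjusted p = 6.5e-04).

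The other late genes moved less. HSD17B7 had -0.30 ± 0.10 (adjusted p = 0.0143), NSDHL -0.16 ± 0.06 (adjusted p = 0.026), SC5D -0.15 ± 0.05 (adjusted p = 0.0133) and TM7SF2 -0.13 ± 0.05 (adjusted p = 0.0297), each with overlapping libraries. These 4 calls did not hold throughout. After median centring the adjusted p was 0.157 for HSD17B7, 0.582 for NSDHL, 0.472 for SC5D and 0.838 for TM7SF2, and with sg1-THAP1 alone it was 0.476 for HSD17B7 and 0.658 for NSDHL. NSDHL also lost its call without sg1-Control replicate 1 or any 1 of the 3 sg2-THAP1 libraries (log2 fold changes of -0.15 to -0.13, adjusted p = 0.0527 to 0.0684). TM7SF2 lost it without sg1-Control replicate 2, sg2-Control replicate 3, sg1-THAP1 replicate 2 or sg2-THAP1 replicate 2 (-0.12 to -0.11, adjusted p = 0.0556 to 0.0792). EBP, the sterol isomerase, had -0.04 ± 0.05 (adjusted p = 0.454) and MSMO1, a methylsterol oxidase, had 0.04 ± 0.10 (adjusted p = 0.774), with the guides on opposite sides of sgControl for both.

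Among the genes of the SREBP system, INSIG1, SREBF1 and SREBF2 fell and INSIG2 and SCAP rose. INSIG1, the sterol-regulated retention protein, stood at 8.09, 8.16 and 8.12 log2 RPM with sg1-Control and 7.88, 7.87 and 7.88 with sg2-Control. The level was 7.42, 7.41 and 7.35 with sg1-THAP1 and 6.68, 6.80 and 6.76 with sg2-THAP1, a fall of 0.93 ± 0.11 (adjusted p = 7.4e-07). SREBF1 stood at 5.35, 5.22 and 5.17 log2 RPM with sg1-Control and 5.31, 5.35 and 5.30 with sg2-Control, and at 4.47, 4.60 and 4.64 with sg1-THAP1 and 4.73, 4.65 and 4.79 with sg2-THAP1. It fell by 0.64 ± 0.05 (adjusted p = 2.9e-09). SREBF2 stood at 6.88, 6.88 and 6.85 with sg1-Control, 6.92, 7.01 and 6.94 with sg2-Control, 6.42, 6.39 and 6.50 with sg1-THAP1 and 6.39, 6.37 and 6.40 with sg2-THAP1, and fell by 0.50 ± 0.03 (adjusted p = 1.1e-10). For all 3 genes the groups did not overlap. The rises were smaller and the libraries overlapped, at 0.16 ± 0.06 for INSIG2 (adjusted p = 0.0198) and 0.11 ± 0.04 for SCAP (adjusted p = 0.0298). INSIG2 lost its call without sg1-Control replicate 1 or sg2-THAP1 replicate 3 (0.14 in both, adjusted p = 0.0501 to 0.0517). SCAP lost it without any sg1-Control library, sg2-Control replicate 3, or sg2-THAP1 replicate 1 or 3 (0.09 to 0.10, adjusted p = 0.0503 to 0.0828).

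Sterol transport held the largest fall. STARD4, a soluble carrier that moves cholesterol between membranes, stood at 4.57, 4.66 and 4.83 log2 RPM in untransduced cells, 4.86, 4.87 and 4.82 with sg1-Control and 4.83, 4.79 and 4.92 with sg2-Control. Its level with sg1-THAP1 was 3.81, 3.88 and 3.77, and that with sg2-THAP1 was 3.54, 3.54 and 3.69. The THAP1 libraries were below all 9 others, at 45.2% of the sgControl level (log2 fold change -1.15 ± 0.06, adjusted p = 8.5e-12). NPC1, which exports cholesterol from lysosomes, fell by 0.74 ± 0.05 (adjusted p = 4.3e-10), from 4.86 to 5.14 log2 RPM in the sgControl libraries to 4.12 to 4.31 in the sgTHAP1 libraries. NPC1L1 had -0.81 ± 0.48 (adjusted p = 0.166) on few reads and did not pass, but with sg1-THAP1 alone it was 1 of the members called lower (-1.27, adjusted p = 0.0413).

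All 7 genes of fatty acid synthesis and desaturation fell, with a median of -0.51 and a range of -0.58 to -0.39, and for each the 6 sgTHAP1 libraries lay below the 6 sgControl libraries. SCD stood at 9.36, 9.41 and 9.43 log2 RPM with sg1-Control, 9.47, 9.51 and 9.42 with sg2-Control, 9.10, 9.10 and 9.12 with sg1-THAP1 and 8.68, 8.65 and 8.66 with sg2-THAP1, a fall of 0.55 ± 0.07 (adjusted p = 3.4e-06). FASN, fatty acid synthase, stood at 9.52, 9.62 and 9.57 with sg1-Control, 9.52, 9.48 and 9.30 with sg2-Control, 9.07, 9.06 and 9.11 with sg1-THAP1 and 9.06, 8.96 and 9.03 with sg2-THAP1, a fall of 0.45 ± 0.04 (adjusted p = 1.3e-08). The elongase ELOVL6 fell by 0.58 ± 0.05 (adjusted p = 5.2e-09), and so did the desaturase FADS1 (0.58 ± 0.05, adjusted p = 1.3e-08). The desaturase FADS2 fell by 0.51 ± 0.06 (adjusted p = 3.7e-07), the carboxylase ACACA by 0.46 ± 0.04 (adjusted p = 1.8e-08) and ACLY by 0.39 ± 0.04 (adjusted p = 3.6e-07). FADS1 and FADS2 overlap each other on opposite strands, so that their reads may be shared. FADS2 also overlaps FEN1 on the same strand (median 5351 reads for FEN1 and 1166 for FADS2), where the strand alone cannot separate reads.

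The control cells differed from untransduced cells in these genes as well. In sgControl relative to untransduced cells, 17 members rose and 7 fell, whereas 28.1% of all genes rose and 40.5% fell. The median member was at 0.17 against -0.12 for all genes. HMGCS1 alone rose by the stricter rule, which 2.29% of all genes met in that direction. It went from 5.68, 5.63 and 5.54 log2 RPM in untransduced cells to 6.72 to 6.83 in the 6 control libraries (log2 fold change 1.16 ± 0.08, adjusted p = 8.1e-11). All 6 sgControl libraries lay above the 3 untransduced ones for 17 members and below them for 6, against 27.3% and 39.8% of all tested genes. Median centring moved the median of all genes by 0.15 and gave 20 members higher and 4 lower, where all genes were at 37.8% higher and 30.2% lower. Quantile normalization gave 14 members higher and 8 lower, where all genes were at 33.7% higher and 31.7% lower.

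The largest rises with the control guides were in the sterol genes and FASN. IDI1 rose by 1.0 ± 0.12 (adjusted p = 3.1e-07) from 6.35, 6.43 and 6.49 log2 RPM, to a mean of 7.42. FASN rose by 0.93 ± 0.05 (adjusted p = 2.0e-12) from 8.60, 8.51 and 8.61. NSDHL, a dehydrogenase of sterol demethylation, rose by 0.88 ± 0.07 (adjusted p = 1.5e-09), SQLE by 0.85 ± 0.11 (adjusted p = 6.8e-07) and INSIG1 by 0.84 ± 0.14 (adjusted p = 1.9e-05). The other rises were ACAT2 (0.57), DHCR7 (0.45), SC5D (0.38), FDFT1 (0.37), EBP (0.30), MVK (0.24), MVD (0.22), LSS (0.21), ACLY (0.20), TM7SF2 (0.17) and ACACA (0.16). The genes of the factors themselves went down. SREBF1 stood at 6.04, 6.13 and 6.19 log2 RPM in untransduced cells, above all 6 control libraries, and fell by 0.84 ± 0.06 (adjusted p = 3.1e-10). INSIG2 fell by 0.50 ± 0.07 (adjusted p = 2.4e-06), SREBF2 by 0.35 ± 0.04 (adjusted p = 1.4e-07), ELOVL6 by 0.35 ± 0.06 (adjusted p = 3.5e-05) and SCAP by 0.23 ± 0.05 (adjusted p = 3.9e-04), while FDPS and FADS1 fell by 0.16 and 0.17 but stood at 0.00 and -0.02 with median centring (adjusted p = 0.996 and 0.814).

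Some of the smaller calls against untransduced cells changed with the scaling or with the library left out. With quantile normalization the adjusted p was 0.066 for FDFT1, 0.162 for LSS, 0.583 for ACACA and 0.423 for ACLY, and with median centring it was 0.234 for SCAP. MVK lost its call without untransduced replicate 3 (0.14, adjusted p = 0.155), MVD without untransduced replicate 2 (0.14, adjusted p = 0.0887), TM7SF2 without untransduced replicate 2 or 3 (0.15 to 0.16, adjusted p = 0.0518 to 0.0672) and FADS1 without untransduced replicate 1 or 2 (-0.16, adjusted p = 0.0741 to 0.0788). STARD4, at 0.16 ± 0.08 (adjusted p = 0.0639), was higher with median centring (0.32, adjusted p = 0.00293) and quantile normalization (0.23, adjusted p = 0.0276), and at 0.16 it also passed with voom, array weights, 1 coefficient per guide and each control guide alone (adjusted p = 0.0102 to 0.0294). It gained a call too without untransduced replicate 3 (0.23, adjusted p = 0.0224), sg1-THAP1 replicate 2 or sg2-THAP1 replicate 2 (0.16, adjusted p = 0.0478 to 0.0485).

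**Figure D2:**
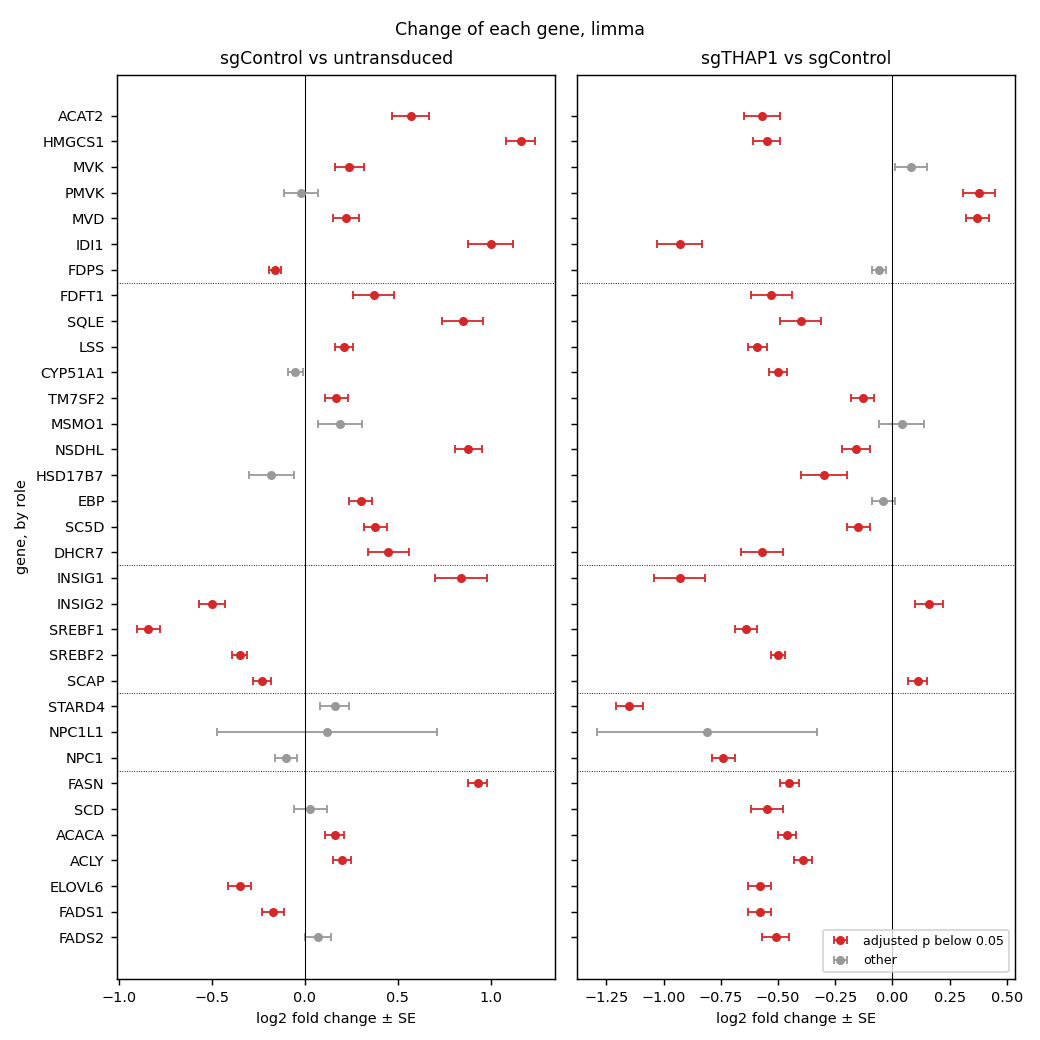
Log2 fold change with its SE (x axis) of each gene (y axis, by role) in sgControl against untransduced cells on the left and in sgTHAP1 against sgControl cells on the right, from limma. Red points had an adjusted p below 0.05 and grey points did not. On the left 17 points are red above 0 and 7 below, and on the right 4 are red above 0 and 24 below.

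The 2 comparisons share the sgControl libraries, so their values for a gene are set side by side only. The groups are separate populations, so a step here means a comparison and not a stage in time. A deviation of sgControl moves the 2 changes in opposite directions. Higher with the control guides and lower with the THAP1 guides relative to them were 14 members, namely ACAT2, HMGCS1, IDI1, FDFT1, SQLE, LSS, TM7SF2, NSDHL, SC5D, DHCR7, INSIG1, FASN, ACACA and ACLY. SREBF1, SREBF2, ELOVL6 and FADS1 were lower in both. CYP51A1, HSD17B7, STARD4, NPC1, SCD and FADS2 passed as lower in the step to the THAP1 guides and did not pass in the step to the control guides, and the difference between the steps was not tested. With other scalings CYP51A1 passed in the step to the control guides too (-0.24 with quantile normalization, adjusted p = 1.8e-04), as did FADS2 (0.23 with median centring, adjusted p = 0.00492) and MSMO1 (0.35 with median centring, adjusted p = 0.0332). MVD was higher in both, PMVK passed as higher in the THAP1 step and not in the other, and INSIG2 and SCAP fell in the first and rose in the second. MSMO1 and NPC1L1 passed in neither step in the pooled fit. The share of all tested genes with each pattern was not counted, so these counts are not read as particular to the members.

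Set directly against untransduced cells, sgTHAP1 cells had 16 members lower and 9 higher, where 45.5% of all genes were lower and 26.9% higher. The median member, at -0.16, was close to that of all genes, -0.20, and median centring, which moved the median of all genes by 0.27, gave 9 members lower and 13 higher. This closeness depended on the scaling. With quantile normalization the median member was at -0.20 against 0.01 for all genes, with 14 members lower and 11 higher. SREBF1 fell furthest, to 35.9% of the untransduced level (log2 fold change -1.48 ± 0.06, adjusted p = 3.9e-14), and it was the 1 member to fall by the stricter rule, as did 13.4% of all genes. STARD4 fell by 0.98 ± 0.08 (adjusted p = 3.2e-10), ELOVL6 by 0.93 ± 0.06 (adjusted p = 2.0e-11), SREBF2 by 0.85 ± 0.04 (adjusted p = 1.4e-13), NPC1 by 0.83 ± 0.06 (adjusted p = 2.8e-10) and FADS1 by 0.75 ± 0.06 (adjusted p = 1.4e-09). Higher than in untransduced cells were NSDHL, by 0.72 ± 0.07 (adjusted p = 2.3e-08), HMGCS1, by 0.61 ± 0.08 (adjusted p = 7.2e-07), MVD, by 0.59 ± 0.07 (adjusted p = 1.1e-07), FASN, by 0.48 ± 0.05 (adjusted p = 3.3e-08), and SQLE, by 0.45 ± 0.11 (adjusted p = 9.0e-04). In all 6 sgTHAP1 libraries, 12 members were below all 9 others, namely LSS, CYP51A1, SREBF1, SREBF2, STARD4, NPC1, SCD, ACACA, ACLY, ELOVL6, FADS1 and FADS2, and PMVK and MVD were above them. Over all tested genes these shares were 12.9% and 7.12%. The calls of SCAP and MSMO1 changed with the library left out. SCAP fell by 0.12 ± 0.05 (adjusted p = 0.0337) but did not pass without any 1 of the untransduced libraries, sg1-THAP1 replicate 2, sg1-THAP1 replicate 3 or sg2-THAP1 replicate 2 (-0.12 to -0.11, adjusted p = 0.0516 to 0.0857). MSMO1 passed only without sg2-THAP1 replicate 1 or 2 (0.28 to 0.29, adjusted p = 0.0333 to 0.048) among the libraries left out in turn.

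Summed over the 33 genes, the level was 3496 ± 26.4 RPM in untransduced cells (SD, n = 3), 4349 ± 53.6 with sg1-Control, 4285 ± 75.3 with sg2-Control, 3441 ± 19.9 with sg1-THAP1 and 2936 ± 31.2 with sg2-THAP1. The sum was highest with both control guides, and that of sg2-THAP1 was the lowest. The fatty acid genes made up most of it, at 1820 ± 23.6 RPM in untransduced cells. For the 3 transport genes the sum was 60.55 ± 3.4 RPM in untransduced cells, 63.27 ± 1.31 with sg1-Control and 59.46 ± 1.5 with sg2-Control, and it was 33.98 ± 0.477 with sg1-THAP1 and 31.25 ± 1.95 with sg2-THAP1. For the late sterol genes it was 684.8 ± 7.37 RPM in untransduced cells, 855.1 ± 4.23 and 882.8 ± 7.64 with the control guides, 743.7 ± 6.41 with sg1-THAP1 and 604.8 ± 4.49 with sg2-THAP1. The late pathway thus lay on opposite sides of the untransduced level with the 2 THAP1 guides. These sums weight each gene by its level and were not tested.

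**Figure D3:**
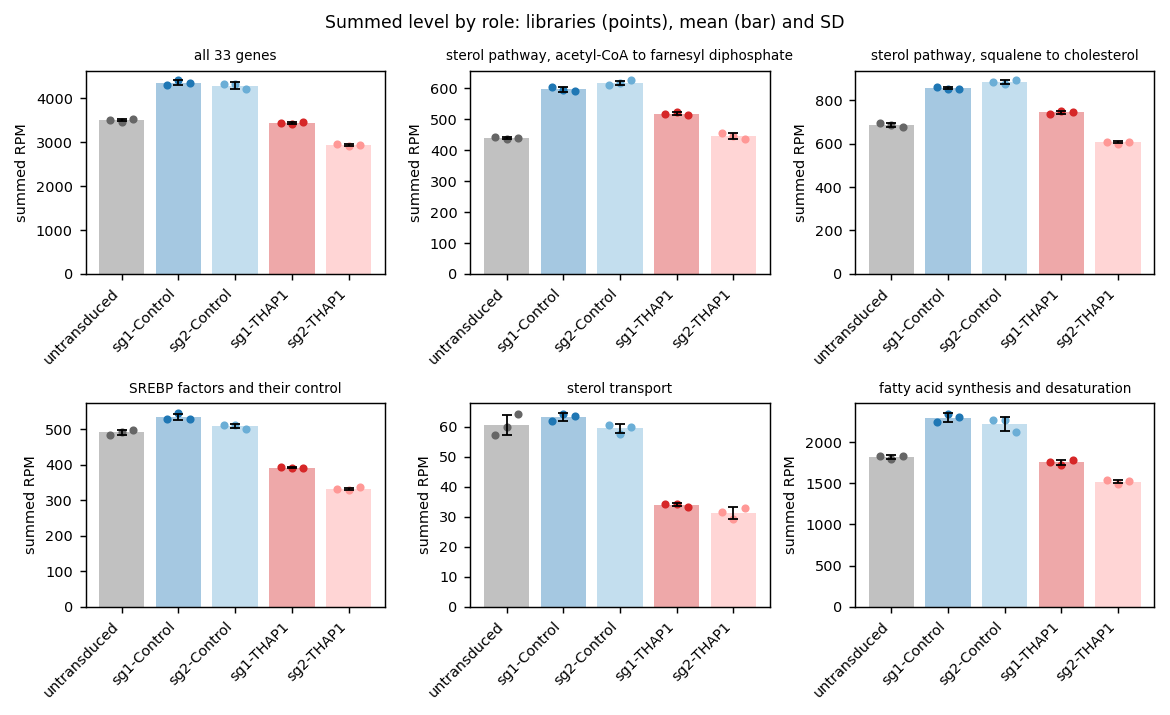
Summed RPM (y axis, from 0) over all 33 genes and over each role in the 5 groups, with bars for the mean of 3 libraries, points for the libraries and black lines for the SD. The control guides are highest for the sterol and fatty acid genes, and the transport genes are lower with both THAP1 guides, at 33.98 and 31.25 RPM, than in the 3 other groups.

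The 2 THAP1 guides did not give the same level of these genes. Of the 33, 17 were higher and 4 lower in sg1-THAP1 than in sg2-THAP1 cells, whereas 11.7% of all genes were higher and 28.3% lower (limma with 1 coefficient per guide, adjusted p under 0.05). The control guides differed in 6 members, with INSIG1, FASN and ACLY higher and SQLE, MSMO1 and SCAP lower in sg1-Control, against 2.06% and 1.82% of all genes. INSIG1 differed most between the THAP1 guides, by 0.65 ± 0.03 (adjusted p = 1.8e-20), and it differed between the control guides by 0.25 ± 0.03 (adjusted p = 6.3e-07) in the same direction. IDI1 differed by 0.57 ± 0.04 (adjusted p = 1.8e-15), MSMO1 by 0.52 ± 0.06 (adjusted p = 4.1e-10), SQLE by 0.51 ± 0.03 (adjusted p = 2.5e-16), and FDFT1 and DHCR7 by 0.50 ± 0.03 and 0.50 ± 0.04 (adjusted p = 1.6e-15 and 4.1e-14). ACAT2 differed by 0.49 ± 0.04 (adjusted p = 2.2e-14), HSD17B7 by 0.48 ± 0.08 (adjusted p = 1.2e-05) and SCD by 0.45 ± 0.02 (adjusted p = 9.8e-19). PMVK was lower with sg1-THAP1 (-0.38 ± 0.05, adjusted p = 3.7e-08), as were SC5D (-0.19), ACACA (-0.18) and SREBF1 (-0.15). After median centring, 23 members were higher and 1, PMVK, was lower, where 22.3% and 15.9% of all genes were. SREBF2 (0.06 ± 0.03, adjusted p = 0.203), FASN (0.06 ± 0.03, adjusted p = 0.137) and NPC1 (0.06 ± 0.06, adjusted p = 0.459) did not pass, but after median centring each stood at 0.16 and passed (adjusted p = 2.4e-04, 2.0e-04 and 0.0267), and SREBF2 passed with quantile normalization as well (0.13, adjusted p = 0.00252).

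Several of the smaller guide differences crossed the threshold depending on which library was left out. MVD (0.14 ± 0.05, adjusted p = 0.0304) lost its call without sg1-THAP1 replicate 1, sg1-THAP1 replicate 3 or sg2-THAP1 replicate 2 (0.10 to 0.14, adjusted p = 0.0783 to 0.205). LSS lost it without sg1-THAP1 replicate 3 (0.10, adjusted p = 0.0575), and SREBF1 without replicate 1 of sg1-THAP1 or replicate 3 of sg2-THAP1 (-0.12 to -0.11, adjusted p = 0.116 to 0.155). ELOVL6 passed only without sg1-THAP1 replicate 2 (0.16, adjusted p = 0.0327), and FASN only without sg2-Control replicate 3 (0.06, adjusted p = 0.0452), among the libraries left out in turn. FADS1 passed without sg2-THAP1 replicate 1 (-0.15, adjusted p = 0.0417), FADS2 without sg1-THAP1 replicate 1 (-0.19, adjusted p = 0.0264), and so did NPC1L1 (-1.80, adjusted p = 0.0239). Between the control guides, SQLE and INSIG1 kept their calls whichever library was left out, while MSMO1 lost it without sg1-Control replicate 2 or sg2-Control replicate 3 (-0.18 to -0.17, adjusted p = 0.0956 to 0.111). SCAP lost it without sg1-Control replicate 1 or 3 or sg2-Control replicate 1 or 2 (-0.13 to -0.09, adjusted p = 0.136 to 0.256). FASN lost it without sg1-Control replicate 2 or 3 or sg2-Control replicate 3 (0.07 to 0.14, adjusted p = 0.055 to 0.2) and ACLY without sg1-Control replicate 2 or sg2-Control replicate 2 or 3 (0.08 to 0.09, adjusted p = 0.0544 to 0.125). FDFT1 gained a call there without sg2-THAP1 replicate 1 or 2 (-0.11, adjusted p = 0.0444 to 0.0471), SCD without sg2-Control replicate 3 (-0.09, adjusted p = 0.0214) and FADS1 without sg2-Control replicate 2 (0.20, adjusted p = 0.0417).

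With each THAP1 guide alone, 24 members were lower than in sgControl cells, against 39.3% of all genes lower with sg1-THAP1 and 30.6% with sg2-THAP1. With sg1-THAP1, 7 members were higher, namely MVK, PMVK, MVD, MSMO1, EBP, INSIG2 and SCAP, against 20.1% of all genes, and with sg2-THAP1 PMVK, MVD and SCAP were higher, against 25.6%. MSMO1 was 0.30 ± 0.05 above sgControl with sg1-THAP1 (adjusted p = 1.0e-06) and 0.22 ± 0.05 below it with sg2-THAP1 (-0.22, adjusted p = 1.4e-04). Against untransduced cells, the guides lay on opposite sides for other members. ACAT2, IDI1, FDFT1, DHCR7 and INSIG1 were higher than in untransduced cells with sg1-THAP1 (0.25, 0.35, 0.09, 0.13 and 0.24, adjusted p = 1.5e-07, 1.1e-10, 0.0164, 0.00331 and 6.5e-09) and lower with sg2-THAP1 (-0.25, -0.22, -0.41, -0.38 and -0.41, adjusted p = 1.1e-07, 4.0e-06, 2.6e-14, 1.1e-11 and 8.0e-16). In contrast, STARD4 was at 48.9% of the sgControl level with sg1-THAP1 and 41.7% with sg2-THAP1, NPC1 at 61.2% and 58.9%, SREBF2 at 72.0% and 69.3% and FASN at 74.8% and 71.6%. The PSMB5 transcript, which includes the exogenous one, was at 11.88 to 11.95 log2 RPM with the control guides and 11.32 to 11.53 with the THAP1 guides. Its part in these differences was not tested.

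**Figure D4:**
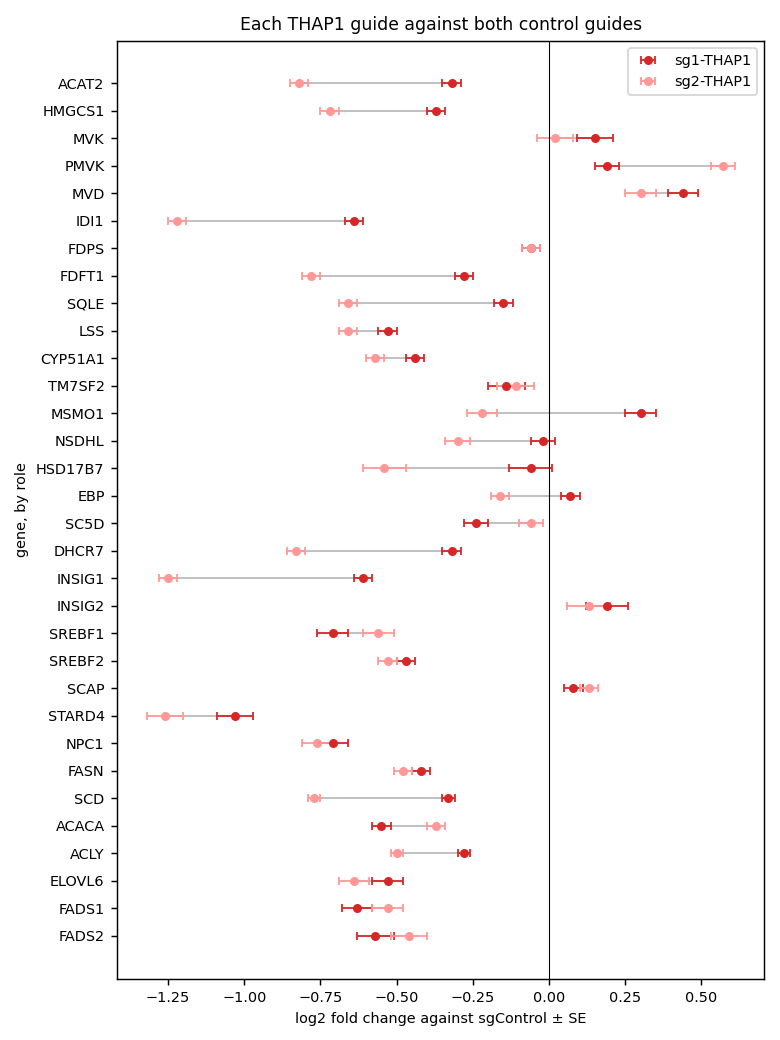
Log2 fold change with its SE (x axis) of 32 genes (y axis, by role, without NPC1L1) in sg1-THAP1 (dark red) and sg2-THAP1 (light red) cells, each against the 6 sgControl libraries, with a grey line between the 2 guides. Light points lie to the left of dark points for most sterol genes, by 0.65 for INSIG1 and 0.57 for IDI1, and the 2 guides are close for SREBF2, NPC1, FASN and FDPS.

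Genes around the pathway were counted from further lists. Of 18 tested genes of lipogenesis and NADPH supply, 11 fell and 2 rose with the THAP1 guides, with a median of -0.26. Among them MLXIPL, the carbohydrate-responsive partner of SREBP1 in lipogenesis, fell by 0.82 ± 0.08 (adjusted p = 3.6e-08), the mitochondrial carboxylase gene ACACB by 0.79 ± 0.08 (adjusted p = 3.3e-08), the phosphatidate phosphatase LPIN1 by 0.73 ± 0.06 (adjusted p = 1.7e-09) and the elongase ELOVL5 by 0.51 ± 0.03 (adjusted p = 6.0e-11). MLXIPL and ACACB were also lower with the control guides than in untransduced cells, by 0.88 ± 0.10 and 0.90 ± 0.09 (adjusted p = 1.0e-07 and 4.1e-08). So was the lipogenic cofactor MID1IP1, by 0.39 ± 0.04 (adjusted p = 3.9e-08). With the control guides, 7 of the 18 fell and 2 rose. Over all genes, 32.6% fell and 20.2% rose in the first of these comparisons, and 40.5% fell and 28.1% rose in the second.

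Of 9 LXR targets and genes of sterol efflux, 5 fell and none rose with the THAP1 guides (median -0.14). Over all genes, 32.6% fell and 20.2% rose by the same rule, and 40.5% fell and 28.1% rose with the control guides. The cholesterol exporters ABCA1 and ABCG1 fell by 1.36 ± 0.37 and 1.0 ± 0.30 (adjusted p = 0.00384 and 0.00841), near the filter on low values and with overlapping libraries. ABCA1 stood at -0.90 to 0.09 log2 RPM in sgControl and -3.35 to -0.72 in sgTHAP1. ABCG1 stood at -1.49 to 0.29 and -2.62 to -0.99 in the same order. With the control guides ABCA1 and ABCG1 changed by -2.09 ± 0.45 and -2.07 ± 0.37 against untransduced cells (adjusted p = 3.8e-04 and 5.4e-05). The phospholipid acyltransferase LPCAT3 fell by 0.61 ± 0.06 (adjusted p = 1.2e-07) and MYLIP, a ubiquitin ligase of lipoprotein receptors, by 0.49 ± 0.07 (adjusted p = 3.7e-06). With the control guides 5 fell and 3 rose. The exporter ABCG4 and the receptor gene NR1H3 were among them, with changes of -1.74 ± 0.23 and -0.66 ± 0.10 (adjusted p = 1.1e-06 and 4.9e-06), and had 0.14 and 0.13 in the THAP1 step (adjusted p = 0.55 and 0.195).

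Of 13 tested genes of sterol esterification, storage and transfer, 6 fell and 2 rose with the THAP1 guides (median -0.18). The sterol transfer gene GRAMD1B fell by 0.78 ± 0.13 (adjusted p = 3.6e-05), the oxysterol-binding proteins OSBP and OSBPL2 by 0.28 ± 0.04 and 0.24 ± 0.04 (adjusted p = 2.9e-06 and 5.1e-05), and NPC2, the lysosomal partner of NPC1, rose by 0.29 ± 0.05 (adjusted p = 5.2e-05). With the control guides 3 fell and 2 rose, among them GRAMD1C and the lysosomal lipase LIPA with changes of -1.77 ± 0.16 and -0.43 ± 0.04 (adjusted p = 5.8e-09 and 6.4e-09). Of 11 genes of SREBP processing and sterol-dependent turnover, 3 fell and 1 rose (median -0.05). The ubiquitin ligase RNF139 fell by 0.28 ± 0.05 (adjusted p = 8.8e-05), the protease gene MBTPS2 by 0.26 ± 0.09 (adjusted p = 0.0241) and PAQR3, a Golgi anchor of SCAP, by 0.22 ± 0.04 (adjusted p = 2.3e-04), while RNF145, another ligase, rose by 0.30 ± 0.05 (adjusted p = 9.0e-05). With the control guides 4 fell and 4 rose, with C12orf49, a cofactor of SREBP cleavage, up by 0.55 ± 0.06 (adjusted p = 3.9e-08). Of 12 genes of the isoprenoid branches, 3 fell and 3 rose with the THAP1 guides (median -0.06), with falls of the prenyltransferase subunits FNTA (-0.19) and PGGT1B (-0.21) and the dolichol synthase subunit DHDDS (-0.23), and a rise of GGPS1, which makes geranylgeranyl diphosphate (0.19). With the control guides 2 fell and 6 rose, with NUS1, the partner of DHDDS, up by 0.43 ± 0.05 and SRD5A3, a polyprenol reductase, at -0.81 ± 0.10 (adjusted p = 7.3e-08 and 2.9e-07). Over all genes, 32.6% fell and 20.2% rose with the THAP1 guides, and 40.5% fell and 28.1% rose with the control guides. Falls with the THAP1 guides were thus no more frequent among the SREBP processing and isoprenoid genes than over all genes. The list counts were not tested against those shares.

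Of the 33 genes, 18 overlap another listed gene, and for 8 of them the overlapping gene had at least 0.1 of the member's reads. These were ACAT2, MVK, CYP51A1, TM7SF2, SREBF1, NPC1, FADS1 and FADS2, and how far reads were shared was not tested. Of the 24 falls in sgTHAP1 relative to sgControl, 20 kept their call under every one of the 28 alternatives run (filters, scalings, other fits, each guide alone and each library left out in turn), as did the rises of PMVK and MVD.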

How the data were processed

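RNA from 15 HEK-293T cultures was sequenced as strand-specific poly(A)+ libraries. The authors trimmed reads with Cutadapt (4.1), aligned them to GRCh38 with HISAT2 (2.2.1) and deposited log2 RPM (reads of a gene scaled to the library total) from SeqMonk (1.48.1), with genes at 0 reads listed at 0.9 of a read. The sources used here give neither the annotation release nor the strand setting of the counting. Steps between low values gave whole reads for 99.8% of values within 0.01 read. The authors' columns of means and fold changes were not used. Groups were taken from the sample labels.

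Genes at or above -2 on the deposited log2 scale in 3 libraries were fitted with limma (3.58.1, R 4.3.3) and an intensity trend, with 1 coefficient each for untransduced, sgControl and sgTHAP1, or 1 per guide for comparisons between guides and of single guides. P-values were adjusted by Benjamini-Hochberg over all genes tested, and 0.05 was the threshold. The stricter rule was 0.001 and over 2-fold. Single genes were also compared by an exact permutation test. Fits with each library left out, other scalings and filters, voom on the recovered reads, array weights and a replicate block were alternatives. The fit was tested on simulated data. All members are described, with per-library values for the largest changes of each role, and other genes were named as the strongest called of each list. The members and lists were chosen with earlier results of these data known. Some genes of the pathway are not reported here.

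Replicates of a group differed by more than counting noise (chi-square per gene 2.38 to 4.81, genes with at least 20 reads). Deviations of same-numbered libraries correlated at -0.104 to 0.0799 over 30 pairs of libraries, so the numbers did not pair the samples.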

Additional observations from a re-analysis of the deposited data

Results flagged for a closer look

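For NPC1, sg2-THAP1 replicate 2 lay apart from the other 5 sgTHAP1 libraries, at 4.12 log2 RPM against 4.28 for the nearest, and this gap was 0.84 of the range of the group (Dixon's critical value 0.625 for 6 libraries). It was the 1 such case among 66 groups of 6 tested. Chance flags about 1 in 20 for a single population, whereas each group here pools 2 guides that may differ. The count is therefore not read against that rate.

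The THAP1 guides differed in 21 members (limma, adjusted p under 0.05), given here as the log2 level in sg1-THAP1 minus that in sg2-THAP1. In the early sterol pathway the difference was 0.49 for ACAT2, 0.35 for HMGCS1, 0.57 for IDI1, 0.14 for MVD and -0.38 for PMVK. In the late pathway it was 0.50 for FDFT1, 0.51 for SQLE, 0.13 for LSS, 0.14 for CYP51A1, 0.52 for MSMO1, 0.28 for NSDHL, 0.48 for HSD17B7, 0.23 for EBP, 0.50 for DHCR7 and -0.19 for SC5D. It was 0.65 for INSIG1, -0.15 for SREBF1 and 0.23 for STARD4. Among the fatty acid genes it was 0.45 for SCD, 0.23 for ACLY and -0.18 for ACACA. The share of cells edited, the residual THAP1 protein and the off-target cuts of each guide were not measured here, and their part in these differences was not tested.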

How the results depend on the processing

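The numbers of the replicates did not pair the samples, and the fit with a replicate block gave 24 members lower and 4 higher in sgTHAP1 against sgControl, 7 and 17 in sgControl against untransduced, 16 and 9 in sgTHAP1 against untransduced, 4 and 17 between the THAP1 guides and 3 and 3 between the control guides, the same counts as without it. Voom on the recovered reads called 24 and 4 members in the first comparison, with 5464 genes lower and 3465 higher. In sgTHAP1 against sgControl, the median change of the members was -0.39 with median centring and -0.32 with sg1-THAP1 alone. The number higher was 7 with sg1-THAP1 alone, 2 with sg2-Control alone and 2 at an adjusted p under 0.01. Under the stricter rule 1 was lower and 0 higher. Leaving out each library gave 22 to 25 lower, 2 to 4 higher and a median of -0.50 to -0.48. MSMO1 turned to -0.22 with sg2-THAP1 alone and EBP to 0.07 with sg1-THAP1 alone. In sgControl against untransduced, median centring gave 4 lower, a median of 0.32 and FDPS at 0.00, the stricter rule 0 lower and 1 higher, and leaving out each library 6 to 7 lower, 15 to 18 higher and a median of 0.15 to 0.21. In sgTHAP1 against untransduced, median centring gave 9 lower and a median of 0.11, with FDPS at 0.05, SCAP at 0.15 and ACLY at 0.08. With sg1-THAP1 alone 15 were higher and ACAT2 (0.25), FDFT1 (0.09), DHCR7 (0.13) and INSIG1 (0.24) turned, as did IDI1 with sg2-THAP1 alone (-0.22). The stricter rule gave 1 lower and 0 higher there, and leaving out each library 15 to 16 lower and 9 to 10 higher. Between the THAP1 guides, quantile normalization gave 2 lower and median centring 1, with FDPS at 0.10, the stricter rule 0 in both directions, and leaving out each library 3 to 5 lower and 15 to 18 higher. Between the control guides, no filter on low values gave 1 lower and 1 higher, an adjusted p under 0.01 gave 1 higher, the stricter rule 0 in both directions, and leaving out each library 2 to 4 lower and 1 to 3 higher. The shifts with median centring follow its construction, which sets the median gene of each library to 1 level. The cause of the other moves was not tested. With promoters from 150 bases before the start, CCAAT was in 55.2% of members and 26.5% of all, CACNCCAC in 10.3% and 4.08%, and TNNNGGCA in 44.8% and 30.0%. Over all 39 promoters of the members, these shares were 56.4%, 12.8% and 38.5%. The values of NPC1L1 rest on 2 to 26 reads per library.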
